A study of Mus musculus with 17 samples.

Results

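Chromatin accessibility around 10 genes of glucose use was described in mouse bone marrow-derived macrophages (BMDMs). The genes were Hif1a, Slc2a1, Hk1, Hk2, Hk3, Pfkfb3, Pfkp, Ldha, Pkm and Slc16a3, 10 of the 55304 genes of the annotation. They were chosen by name, and every accessible region overlapping a gene body or the 20 kb on either side of it was taken. This gave 50 of the 34166 accessible elements of the series and 1295 of the 808470 peaks in its 17 peak lists. The assay was ATAC-seq, in which a transposase tags DNA that is not packed away in nucleosomes, and the mm10 (GRCm38) genome build was used throughout.

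The macrophages were grown for 7 days from bone marrow of male C57Bl6/J mice aged 6 to 12 weeks, in medium with L929-conditioned supernatant. Wild-type (WT) littermates gave 3 samples without lipopolysaccharide (LPS, 0 h), 2 samples after 1 h and 3 samples after 18 h of LPS at 100 ng/ml. The KO mice lacked Nr4a1, the gene of the nuclear receptor Nur77, in the whole body, after CMV-Cre excision of a loxP-flanked allele and removal of the Cre by breeding (the genotype tag of their samples nevertheless reads cre), and gave 3 samples at each of 0, 1 and 18 h of the same LPS. The labels do not say whether the replicates came from separate mice, so the p-values measure the spread between these lists, which may be technical, and 1 of the WT 1 h samples is labelled replicate 1-2. The deletion was body-wide, so the KO macrophages had also differentiated without Nur77.

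Macrophages given LPS turn to glycolysis, the cytosolic breakdown of glucose to pyruvate and lactate. Hif1a encodes the inducible subunit of a transcription factor that binds hypoxia response elements and drives many genes of this route. Slc2a1 brings glucose into the cell, the hexokinases Hk1, Hk2 and Hk3 phosphorylate it, phosphofructokinase (Pfkp) with its activator-making enzyme Pfkfb3 commits it to glycolysis, pyruvate kinase (Pkm) makes pyruvate, and lactate dehydrogenase (Ldha) and the transporter Slc16a3 turn it into lactate and export it.

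The lists differed in depth, from 0.382 to 9.75 background reads per kb, and the WT 1 h lists (0.382 and 1.61) lay below the WT 0 h lists (5.11 to 9.75). Peaks were therefore ranked by −log10 p-value inside each list. The rank score of an element was log2(24389 / rank), where 24389 is the number of peaks in the shortest list. It was 0 for an element not among the best 24389 peaks, and a score higher by 1 means a 2-fold smaller rank number. Ranks are relative, and a higher score means a better place among all sites of the same list. In KO 18 h replicate 1 the median peak was 135 bp wide, against 338 to 661 bp in the other lists. Promoters of 7 of 8 macrophage marker genes carried a ranked peak in all 17 lists, all but Mrc1, while those of 4 T cell markers carried no peak in any list and those of 4 B cell and 2 NK cell markers carried no ranked peak. Promoters of Cdh5 (endothelial) in 17 lists, S100a8 and Camp (neutrophil) in 15 and 10 lists, and Col1a1 (fibroblast) in 14 lists did carry a ranked peak, and the part of other cells in the results was not tested. The exons shared by the transcripts of Nr4a1 carried a peak in 0 of 17 lists, so the deletion itself could not be checked here.

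The 50 elements held 12 promoter elements, which lay within 1 kb of an annotated start of a protein-coding transcript, and 38 distal elements. Pfkfb3 had 10 elements, Hk1 8, Hk2 6, Slc16a3 5, Pfkp, Ldha and Pkm 4 each, and Hif1a, Slc2a1 and Hk3 3 each. Distances below are from the start of the gene's promoter element with the best median rank, here called the open start, in the direction of transcription.

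**Figure D1:**
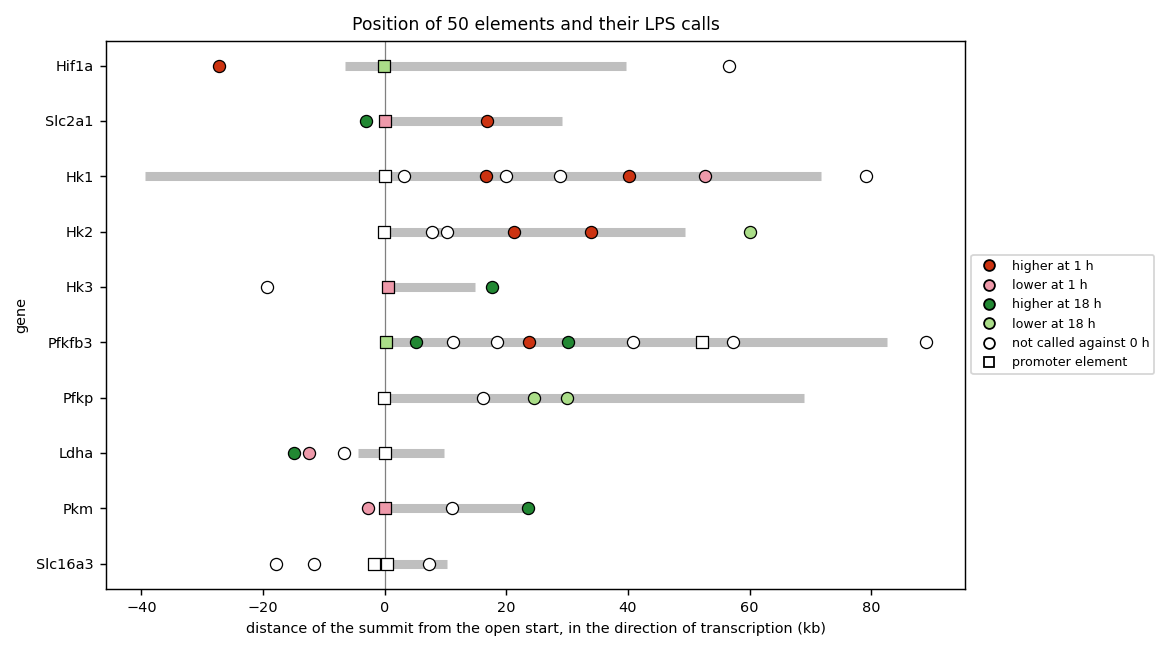
Positions of the 50 elements at the 10 genes, with the distance from the open start in kb on the x axis and grey bars for the annotated gene bodies. Squares are promoter elements and circles are distal elements, and filled colours mark the elements called at 1 h or 18 h of LPS against 0 h, by the larger of the differences where both were called. Of the 8 elements of Hk1 none lay in the long stretch of gene body before its open start, and Slc16a3 had no filled symbol.

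The sequences of 7 elements are shown because the LPS differences described below turn on them, with 200 bases around each best summit. Bases are from the + strand of GRCm38.p6 and start 100 bases before the summit. Capitals mark matches on either strand to AP-1 (TGACTCA or TGAGTCA), C/EBP (TTACNNAA or TTGCNNAA), the core of the hypoxia response element (HRE, ACGTG or GCGTG) and NF-kB. The order is Hif1a at chr12:73880502-73880701, Slc2a1 at chr4:119125600-119125799, Hk1 at chr10:62300293-62300492, Hk2 at chr6:82753103-82753302, Pfkfb3 at chr2:11523924-11524123, Ldha at chr7:46833387-46833586 and Pkm at chr9:59656250-59656449.
Hif1a upstream element, −27.3 kb: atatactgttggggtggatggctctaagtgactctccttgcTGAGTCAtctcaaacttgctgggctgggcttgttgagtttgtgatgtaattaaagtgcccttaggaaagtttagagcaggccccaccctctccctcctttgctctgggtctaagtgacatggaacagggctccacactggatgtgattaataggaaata
Slc2a1 intronic element, +16.8 kb: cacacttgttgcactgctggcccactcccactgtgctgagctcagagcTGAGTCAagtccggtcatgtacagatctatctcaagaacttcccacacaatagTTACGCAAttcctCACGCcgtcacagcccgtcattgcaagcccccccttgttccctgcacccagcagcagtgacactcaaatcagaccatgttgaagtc
Hk1 intronic element, +40.1 kb: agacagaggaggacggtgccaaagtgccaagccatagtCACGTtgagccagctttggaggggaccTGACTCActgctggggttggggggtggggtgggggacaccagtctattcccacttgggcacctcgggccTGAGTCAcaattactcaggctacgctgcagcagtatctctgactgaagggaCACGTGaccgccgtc
Hk2 intronic element, +21.3 kb: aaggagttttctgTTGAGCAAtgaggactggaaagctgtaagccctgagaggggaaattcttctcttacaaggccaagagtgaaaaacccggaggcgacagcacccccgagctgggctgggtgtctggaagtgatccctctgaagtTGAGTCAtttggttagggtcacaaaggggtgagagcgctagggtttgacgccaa
Pfkfb3 intronic element, +30.1 kb: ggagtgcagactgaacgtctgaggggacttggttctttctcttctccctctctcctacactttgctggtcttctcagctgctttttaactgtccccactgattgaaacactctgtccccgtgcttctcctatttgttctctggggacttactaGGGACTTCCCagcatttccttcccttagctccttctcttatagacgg
Ldha upstream element, −12.4 kb: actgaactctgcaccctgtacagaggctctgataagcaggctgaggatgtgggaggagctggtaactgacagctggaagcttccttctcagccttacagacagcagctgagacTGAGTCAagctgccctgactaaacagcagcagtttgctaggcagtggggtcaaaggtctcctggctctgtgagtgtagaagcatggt
Pkm promoter element: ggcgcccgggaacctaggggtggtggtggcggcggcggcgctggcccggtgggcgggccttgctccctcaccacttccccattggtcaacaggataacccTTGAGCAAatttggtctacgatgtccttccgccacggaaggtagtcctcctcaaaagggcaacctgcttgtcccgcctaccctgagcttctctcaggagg

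The elements of Hif1a, Slc2a1, Hk1 and Hk2 each held an AP-1 match, 1 in each and 2 in Hk1, and the element of Ldha held 1. The capitals of the Pfkfb3 element are an NF-kB match and those of the Pkm promoter a C/EBP match. Hk1 also held 3 HRE matches, of which a pair on opposite strands overlap in 1 run of capitals. In the same window, AP-1 letters occurred at 16.2% of all 34166 elements (21.7% of distal and 4.70% of promoter elements), and at 13 of the 50. Of the 7 member elements called higher at 1 h, 5 held AP-1, against 30.5% of the 4670 elements called higher at 1 h in the genome. NF-kB letters were found at 0 of these 7, against 13.7% of the 4670. AP-1 letters were also found at 2 of the 7 member elements called lower at 1 h, against 7.29% of the 4910 called lower in the genome. At 18 h against 0 h they were at 1 of the 8 called higher and 3 of the 7 called lower, against 22.2% of 3667 and 13.1% of 4402. HRE letters were found at 24 of the 50 elements, against 33.7% of all elements. NBRE letters (AAAGGTCA), the monomer motif of Nur77, were found at 1 of the 50, the element of Ldha at −14.9 kb, against 1.04% of all elements. ISRE letters were found at 1 and PU.1 letters (GAGGAAGT) at 4 of the 50, against 3.61% and 7.69%. A match is a description of letters and not of binding.

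The first question was how LPS changed accessibility at these genes. At 1 h against 0 h, averaged over the genotypes, 7 of the 50 elements were called higher and 7 lower (limma, adjusted p under 0.05 over all 34166 elements), against a background of 13.7% higher and 14.4% lower among all elements. At 18 h against 0 h, 8 were called higher and 7 lower, against 10.7% and 12.9%. At 18 h against 1 h, 11 were called higher and 9 lower, against 13.7% and 15.1%. The members' shares of 28% at 1 h and 30% at 18 h were near those of all elements, 28.0% and 23.6%, and are not a result about these genes as a set. The share of 40% at 18 h against 1 h stood beside 28.8% of all elements, and the set as such was not tested. The median score difference at 1 h was −0.05 over the 50 elements and −0.03 over all elements. The medians at 18 h were 0.01 and 0.00.

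Promoter and distal elements are given apart because they differed over the genome. At 1 h, 7 of 38 distal elements were higher and 3 lower, while 0 of 12 promoter elements were higher and 4 were lower. Over the genome 17.4% of distal elements were called higher and 12.7% lower, and 5.91% of promoter elements were called higher and 17.8% lower. At 18 h, 7 distal elements were higher and 5 lower, against 13.5% and 12.8% of distal elements over the genome, and 1 promoter element was higher and 2 were lower, against 5.03% and 13.0%. In all, 25 of the 50 elements were called in at least 1 of the 3 LPS comparisons (50%, against 45.7% of all elements) and 25 in none. Of the called elements, some had been ranked at 1 time only and so had to differ, 2 of the 7 higher and 1 of the 7 lower at 1 h, 2 of the 8 higher and 1 of the 7 lower at 18 h, and 2 of the 11 higher and 2 of the 9 lower at 18 h against 1 h. When a peak had to cover 50% of an element to count there, 13 of the called differences kept their call, 31 lost it and 5 turned in direction. Of the 13 kept, 7 were at elements ranked at 1 time only, and the others were both differences of the Hk1 element at +40.1 kb, and those of the Hk2 element at +60.0 kb at 18 h, the Hk3 promoter at 18 h against 1 h, the Pfkfb3 promoter at 1 h and the Ldha element at −14.9 kb at 18 h against 1 h.

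At Hif1a, an element 27.3 kb upstream rose in rank at 1 h and was outside the ranked peaks at 18 h. It lies on chromosome 12 from 73880222 to 73881975, in the long noncoding gene Gm15283, and 20.8 kb before the first annotated coding start of Hif1a. Its ranks in the WT lists were 17303, 15745 and 16459 at 0 h, 8250 and 3648 at 1 h, and 29202, 29404 and 31674 at 18 h. In KO they were 18791, 19388 and no peak at 0 h, 4468, 5599 and 7135 at 1 h, and no peak, no peak and 31121 at 18 h. All 5 lists at 1 h ranked it better than every list at 0 h, and no list at 18 h held it among the best 24389. The rank score was higher by 1.73 ± 0.19 (SE) at 1 h than at 0 h, a 3.33-fold better rank (adjusted p = 8.83e-06, exact permutation p = 0.005, the smallest that test can give). From 1 h to 18 h it fell by 2.13 on the log2 scale (adjusted p = 1.19e-06). When a peak had to cover 50% of the element, the 1 h difference was −0.16 and not called.

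The Hif1a promoter element, on chromosome 12 from 73907056 to 73909203, was among the well-ranked sites in every list. Its ranks at 0 h were 1292, 2160 and 1351 in WT and 1528, 1339 and 1052 in KO. At 1 h they were 1649 and 1125 in WT and 2069, 969 and 1786 in KO, which overlapped those at 0 h (score difference −0.03 ± 0.26, adjusted p = 1). At 18 h they were 1855, 2055 and 2106 in WT and 3530, 3433 and 2293 in KO. The 18 h score was lower than at 0 h by a difference of −0.80 ± 0.25 (adjusted p = 0.0273, exact permutation p = 0.02). That call was lost without any 1 of 5 lists, WT 0 h replicates 1 and 3, WT 18 h replicates 2 and 3 and KO 0 h replicate 3, and over all fits without 1 list the difference was between −0.92 and −0.72, with adjusted p up to 0.0707. The remaining element of the locus lay at the promoter of Snapc1, a gene for a subunit of the snRNA-activating complex, 56.6 kb from the open start of Hif1a, and had ranks of 4343 to 11335 with no called difference.

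The annotated starts of Hif1a were not equally open. The start at 73907904 carried a peak within 1 kb in 17 of 17 full lists and the start at 73901375 in 7. Among 10087 promoter elements of 11409 genes, those most like that of Hif1a in rank score over the 17 lists belonged to Slc3a2 (Euclidean distance 1.50), Haus8 and Myo9b (1.85 for their common element), Sf3b2 (1.96) and Zfp90 (1.97). Their scores differed from that of Hif1a by at most 0.99 in any list.

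The glucose transporter gene Slc2a1 had an intronic element that rose at 1 h while its promoter element fell. The intronic element, 16.8 kb into the gene on chromosome 4 from 119124346 to 119128017, had ranks of 13694, 13748 and 11581 in WT and 10836, 9920 and 13205 in KO at 0 h. At 1 h the ranks were 6903 and 2443 in WT and 6574, 4078 and 3348 in KO, all better than at 0 h. At 18 h they were 7032, 9191 and 8783 in WT and 13786, 5124 and 5669 in KO, which overlapped the 0 h lists through KO 18 h replicate 1. The score was higher at 1 h than at 0 h by 1.49 ± 0.30 (adjusted p = 0.0017, exact permutation p = 0.005), and turned to −0.51, not called, when a peak had to cover 50% of the element. At 18 h the difference from 0 h was 0.63 ± 0.29 (adjusted p = 0.13).

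The Slc2a1 promoter element, on chromosome 4 from 119108202 to 119110249, had ranks of 4754, 6220 and 2893 in WT and 4108, 8083 and 5809 in KO at 0 h, and of 17392 and 8766 in WT and 6714, 11132 and 7522 in KO at 1 h. The groups overlapped through the KO lists. The difference at 1 h was −1.001 ± 0.30 (adjusted p = 0.02, exact permutation p = 0.02). It was −0.75 without WT 1 h replicate 1-2, the shallowest list, with adjusted p = 0.123, and −0.43 with log2 depth as a covariate (adjusted p = 0.415). The call was also lost when WT 0 h replicate 3 or KO 0 h replicate 1 was left out. At 18 h the ranks were 2219, 4093 and 4442 in WT and 5188, 3992 and 2882 in KO, and the score was higher than at 1 h by 1.46 ± 0.30 (adjusted p = 0.0016). An element 3.0 kb upstream of the open start had ranks of 14508 to 22264 at 0 h, 16561 to 36336 at 1 h and 8557 to 15049 at 18 h. Its 18 h score was higher than at 0 h by 0.54 ± 0.16 (adjusted p = 0.0221) and than at 1 h by 0.62 ± 0.17 (adjusted p = 0.012). Both calls were lost with no common number of peaks and with 50% cover. The call against 0 h was also lost without any 1 of 3 lists (adjusted p up to 0.0626).

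**Figure D2:**
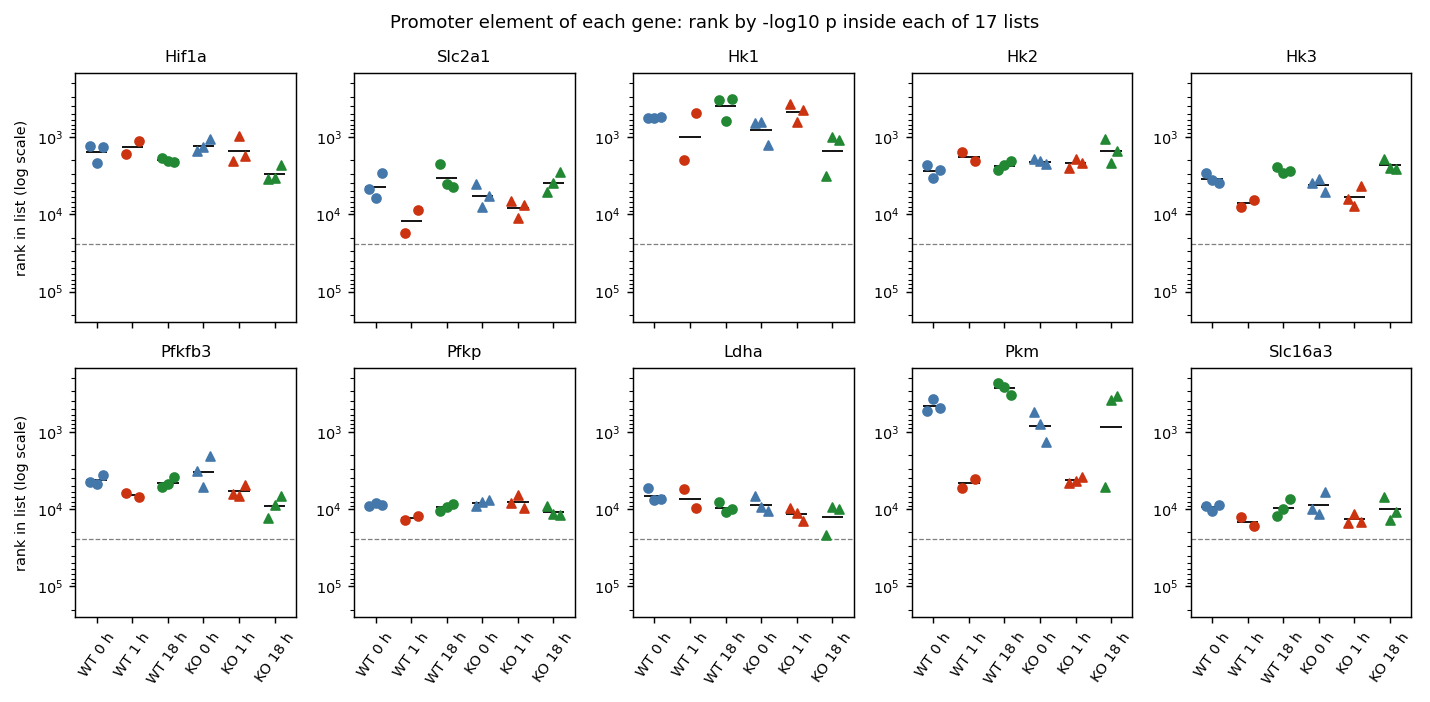
Rank of the promoter element of each of the 10 genes inside each of the 17 lists, on an inverted log scale with the best rank at the top. Circles are WT and triangles KO lists, blue is 0 h, red 1 h and green 18 h, bars are group means of the rank score put back to ranks, and the dashed line is rank 24389. All 10 promoters lay above the dashed line in all 17 lists, and the Pkm promoter had the widest spread, from 232 to 5291.

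Of the hexokinase genes, Hk1 encodes the housekeeping enzyme, Hk2 the inducible one and Hk3 a form of blood cells. Hk1 had an intronic element with the largest rise at 1 h among the 50 elements. It lies on chromosome 10 from 62299755 to 62301115, 40.1 kb into the gene from the open start. The ranks at 0 h were 7958, 9141 and 8754 in WT and 8076, 10146 and 9176 in KO. At 1 h they were 1584 and 2163 in WT and 2286, 1764 and 2662 in KO, and at 18 h they were 10267, 10032 and 7386 in WT and 9899, 7900 and 8989 in KO. All 1 h lists stood apart from all others, and the 18 h lists overlapped those at 0 h. The score was higher by 2.13 ± 0.18 at 1 h than at 0 h, a 4.38-fold better rank (adjusted p = 5.98e-07, exact permutation p = 0.005). At 18 h the difference from 0 h was −0.03 ± 0.17 (adjusted p = 0.982, 95% interval −0.38 to 0.33). From 1 h to 18 h the score fell by 2.16 on the log2 scale, and both changes were called under every alternative and without any 1 list.

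A second intronic element of Hk1, 16.6 kb from the open start on chromosome 10 from 62322785 to 62324291, had ranks of 10844 and 11431 in WT and 18230, 10853 and 17436 in KO at 1 h. The best rank it had in any 0 h list was 22210. The difference at 1 h was 0.89 ± 0.13 (adjusted p = 0.000125, exact permutation p = 0.005), and it was not called with no common number of peaks (0.56, adjusted p = 0.161) or with 50% cover, where the difference was 0. An element at 52.6 kb was ranked only in 4 lists at 0 h and had score differences of −0.18 at both times, with no p given since it entered the fit only through those lists.

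The Hk1 promoter element, on chromosome 10 from 62338332 to 62341248, was the most open promoter of the 10 beside that of Pkm. Its ranks ran from 323 (WT 18 h replicate 3) to 3232 (KO 18 h replicate 1) with a median of 616, and no LPS difference was called (−0.03 ± 0.42 at 1 h, adjusted p = 1, and −0.22 ± 0.39 at 18 h, adjusted p = 0.762). It covers the coding start at 62340542. The 7 annotated coding starts upstream of it, from 62342699 to 62379908, carried a peak within 1 kb in 0 of 17 full lists, so of the annotated alternative starts of Hk1 at this end only that one was accessible at the depth of these lists.

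Hk2 carried an intronic element that was ranked at 1 h only. It lies 21.3 kb into the gene on chromosome 6 from 82752740 to 82753944, and was among the best 24389 peaks in 5 of 5 lists at 1 h and in 0 of 12 lists at 0 or 18 h. Its ranks at 1 h were 11922 and 9288 in WT and 5943, 5759 and 3773 in KO. At 0 h it was present in 3 of 6 full lists, at ranks 50408, 47273 and 42111, and at 18 h in 3 of 6, at ranks 36984, 31803 and 30383. The mean score difference between 1 h and 0 h was 1.74. The element entered the fit only through its 1 h lists and all its 0 h and 18 h scores were 0, so the direction was fixed by that choice, no p is given, and the difference is no bound on the change.

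A weaker intronic element of Hk2, 34.0 kb into the gene, was also ranked at 1 h only, in 4 of 5 lists, at 11794 in WT replicate 3 and at 20050, 18384 and 19432 in KO. Its difference of 0.43, again from an element that entered only through 1 h lists, became 0.17 when WT 1 h replicate 3 was left out and 0.69 when replicate 1-2, which had no peak there, was. An element 60.0 kb from the open start, past the end of the gene, had a difference of −0.19 ± 0.06 at 18 h (adjusted p = 0.0328, exact permutation p = 0.05), lost without any 1 of 6 lists (WT 0 h replicates 1 and 2, WT 18 h replicates 1 and 3, KO 0 h replicate 1 and KO 18 h replicate 3). It was between −0.24 and −0.16 over all fits without 1 list. The Hk2 promoter element had ranks of 1067 to 3362 and the best-ranked distal element, 10.2 kb into the gene, ranks of 3343 to 17747. Neither was called at any time.

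Hk3 was the hexokinase gene with elements called higher at 18 h. Its downstream element, on chromosome 13 from 54994665 to 55009815, is a merged stretch of 15151 bp that also holds the promoter of Unc5a, a netrin receptor gene, and has its best summit 17.6 kb from the open start of Hk3. The ranks were 19444, 20441 and 18168 in WT and 20660, 15562 and 19828 in KO at 0 h. At 1 h it was outside the best 24389 peaks in all 5 lists. At 18 h the ranks were 7043, 7378 and 7203 in WT and 14525, 3429 and 4769 in KO, all better than at 0 h. The difference at 18 h was 1.50 ± 0.26 (adjusted p = 0.000535, exact permutation p = 0.005). In 500 bp windows around summits the stretch split into smaller elements, and the one seen in the most lists, 14, had a difference of 0.99 (adjusted p = 0.0685).

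The Hk3 promoter element, 9091 bp wide on chromosome 13 from 55014430 to 55023520, had its worst ranks at 1 h. They were 2942, 3651 and 3918 in WT and 3990, 3464 and 5194 in KO at 0 h, 8051 and 6473 in WT and 6363, 7885 and 4321 in KO at 1 h, and 2434, 2888 and 2765 in WT and 1905, 2544 and 2569 in KO at 18 h. All 18 h lists were better than all 0 h lists, and the 1 h lists overlapped the 0 h lists through KO. The difference was −0.79 ± 0.21 at 1 h (adjusted p = 0.00931, and 0.118 with log2 depth as a covariate) and 0.61 ± 0.19 at 18 h (adjusted p = 0.033, exact permutation p = 0.005). The 18 h call was lost without any 1 of 6 lists, WT 0 h replicates 2 and 3, WT 18 h replicates 1 and 3 and KO 0 h replicates 1 and 3, and over all fits without 1 list the difference was between 0.53 and 0.67, with adjusted p up to 0.0793. In 500 bp windows the piece at the best summit of the element, a peak in 4 lists, had differences of 0.92 at 1 h (adjusted p = 0.26) and −0.30 at 18 h against 1 h, opposite to the whole element, while the piece 35 bp from a start of Hk3, a peak in 16 lists, had differences of −1.37 at 1 h (adjusted p = 0.0195) and 0.32 at 18 h (adjusted p = 0.605).

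**Figure D3:**
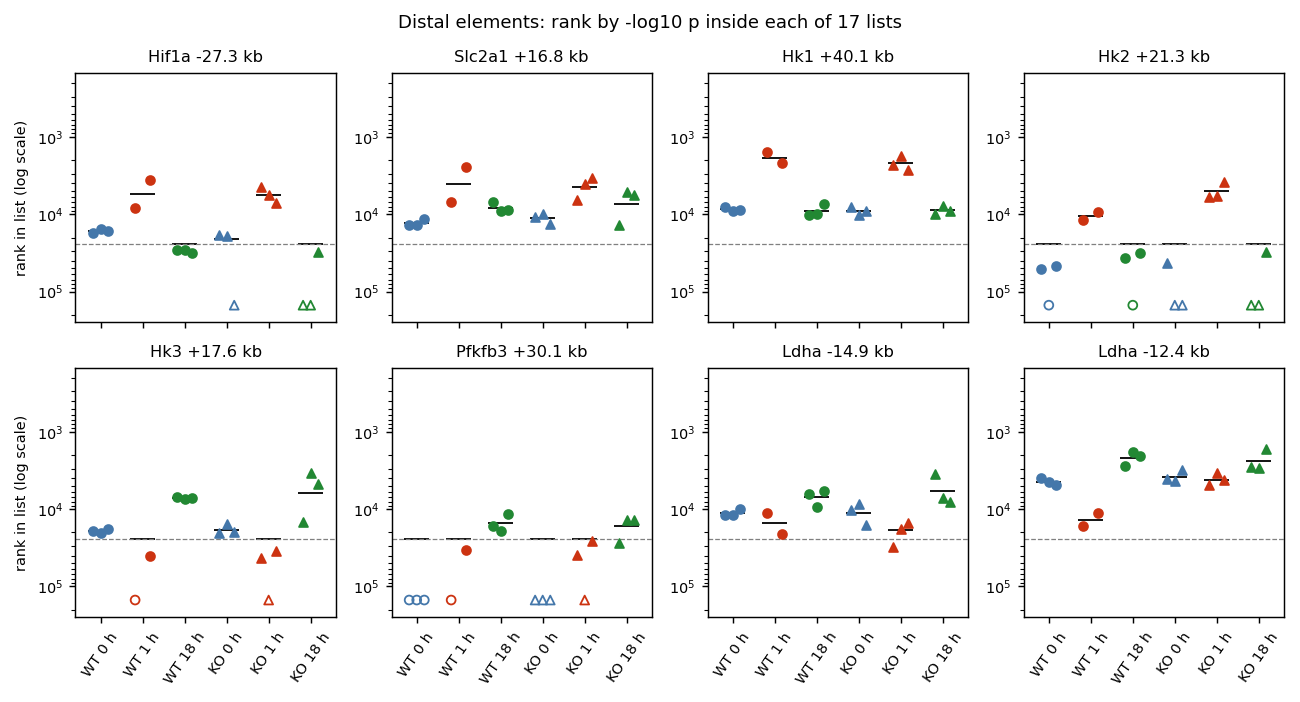
Rank of 8 distal elements inside each of the 17 lists, on an inverted log scale with the best rank at the top, each named by its gene and distance from the open start. Circles are WT and triangles KO lists, blue is 0 h, red 1 h and green 18 h, open symbols at the bottom are lists with no peak, bars are group means of the rank score put back to ranks, and the dashed line is rank 24389. The elements of Hif1a, Slc2a1, Hk1 and Hk2 have their best ranks at 1 h and those of Hk3, Pfkfb3 and Ldha at 18 h.

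At the phosphofructokinase step, Pfkfb3, whose product makes fructose 2,6-bisphosphate, the activator of phosphofructokinase, had an intronic element ranked only at 18 h. This element lies 30.1 kb from the open start on chromosome 2 from 11523660 to 11525101, and 21.9 kb upstream of a cluster of alternative starts of the same gene. No 0 h list held a peak there. At 1 h it was present in 3 of 5 full lists, at ranks 33419, 39156 and 25627, and at 18 h the ranks were 16344, 19165 and 11502 in WT and 27177, 13932 and 13690 in KO. The score difference between 18 h and 0 h was 0.61. This element entered the fit only through 5 of the 18 h lists, so its direction too was fixed by that choice and no p is given. In the WT lists, the window of Pfkfb3 held 21.7 ± 3.79 full-list peaks (SD, n = 3) at 18 h, at a depth of 4.62 to 8.38, and 11.3 ± 1.53 (SD, n = 3) at 0 h, at a depth of 5.11 to 9.75 background reads per kb. The KO lists held 13.3 ± 1.53 (SD, n = 3) at 18 h, at a depth of 1.10 to 1.76, and 7.33 ± 3.51 (SD, n = 3) at 0 h, at a depth of 0.720 to 7.65 background reads per kb.

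Both annotated start regions of Pfkfb3 were accessible in 17 of 17 lists. The upstream promoter element, on chromosome 2 from 11552496 to 11554583, had ranks of 2073 to 5202 at 0 h, 4814 to 7073 at 1 h and 3889 to 13173 at 18 h. Its difference was −0.74 ± 0.24 at 1 h (adjusted p = 0.0339) and −0.80 ± 0.23 at 18 h (adjusted p = 0.0199). The 1 h call was lost without any 1 of 8 lists, WT 0 h replicates 1 and 3, both WT 1 h lists, KO 0 h replicates 1 and 3 and KO 1 h replicates 1 and 2 (differences between −0.91 and −0.58 over all fits without 1 list), and the 18 h call without WT 0 h replicate 3 (adjusted p = 0.0529). The 18 h difference was −0.10 in WT and −1.49 in KO, and the KO minus WT difference of −1.39 was not called (adjusted p = 0.53). The KO ranks at 18 h were 13173 in the narrow-peak list, replicate 1, and 8742 and 6714 in the others. The depth at 18 h was 1.10 to 1.76 background reads per kb in KO and 4.62 to 8.38 in WT, and its part in this difference was not tested. The inner promoter element, 52.2 kb downstream, had ranks of 4532 to 12197 and no call. The best-ranked distal element, 18.4 kb into the gene, had ranks of 3051 to 10292 and no call. Intronic elements at 5.2, 23.7 and 57.2 kb were also called. The first was ranked only in 18 h lists (score difference 0.30 at 18 h, and 0.19 without KO 18 h replicate 1), the second, ranked in no 0 h list, had a difference of 0.23 at 1 h against 0 h, and of 0.14 without WT 1 h replicate 3, and the third one of 0.71 ± 0.21 at 18 h against 1 h (adjusted p = 0.0192), and each lost a call when some single lists were left out, WT 1 h replicate 3 among them for the last 2 (adjusted p of the third 0.0758).

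Pfkp encodes the platelet-type phosphofructokinase. Its promoter element, on chromosome 13 from 6646872 to 6649515, had ranks of 6599 to 13898 and was not called at any time. An intronic element 24.5 kb into the gene, on chromosome 13 from 6623947 to 6624931, was among the best 24389 peaks in 10 lists, all 5 at 1 h, 5 of 6 at 0 h and 0 of 6 at 18 h. Its ranks were 12808 to 19561 at 1 h and 24666 to 36133 in the 5 full lists that held it at 18 h, and the score fell from 1 h to 18 h by 0.64 on the log2 scale (adjusted p = 0.0015). An intronic element 29.9 kb into the gene had a difference of −0.57 ± 0.19 at 18 h against 0 h (adjusted p = 0.0438). Calls of these Pfkp elements at 18 h against 0 h were lost without any 1 of 11 of the 17 lists, which for both elements included all WT lists at 0 and 18 h (adjusted p up to 0.0996).

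The lowest score difference of the 50 elements at 1 h was at the promoter of Pkm, the pyruvate kinase gene. This element, on chromosome 9 from 59655528 to 59661439, had ranks of 544, 379 and 491 in WT and 551, 783 and 1348 in KO at 0 h. At 1 h it had ranks of 5291 and 4092 in WT and 4619, 4269 and 3848 in KO, all worse than every 0 h list. At 18 h the ranks were 232, 262 and 335 in WT and 5143, 388 and 341 in KO. The narrow-peak list, KO 18 h replicate 1, stood with the 1 h lists, and the other 5 lists at 18 h had ranks of 232 to 388 against 379 to 1348 at 0 h. The score fell by 2.83 on the log2 scale at 1 h, with an SE of 0.55, a 7.12-fold worse rank (adjusted p = 0.00127, exact permutation p = 0.005). From 1 h to 18 h it rose by 3.18 ± 0.55 (adjusted p = 0.000466), and by 3.82 without KO 18 h replicate 1. When a peak had to cover 50% of the element the differences were −2.85 (adjusted p = 0.157) and 1.12 (adjusted p = 0.684), and neither was called.

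In 500 bp windows the piece 60 bp before the start at 59656368 had a difference of −2.97 at 1 h (adjusted p = 0.00123). A second piece, 1490 bp after another annotated start farther into the gene at 59658243, had 0.88 (adjusted p = 0.207). The reads at the summit, recovered from the deposited values, were few in the shallow lists, 12 in WT 1 h replicate 1-2 and 51 in WT 1 h replicate 3, against 364 to 648 in the WT 0 h lists. Over all 11054 promoter elements the median difference at 1 h was −0.25 on the same scale. With log2 depth as a covariate the difference at the Pkm promoter at 1 h was −2.56 (adjusted p = 0.0253).

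The element of Pkm with called differences past the end of the gene, on chromosome 9 from 59674945 to 59682286, holds the promoter of Gramd2. It was called higher at 18 h than at 1 h, with a score difference of 0.51. It was ranked in 0 of 5 lists at 1 h, so all its 1 h scores were 0. The direction could therefore only be upward, and no p is given. Its call at 18 h against 0 h (0.32, adjusted p = 0.0417) was lost without any 1 of 13 lists and under 5 alternatives. An element 2.8 kb upstream of the Pkm start had differences of −0.36 ± 0.12 at 1 h and −0.36 ± 0.11 at 18 h (adjusted p = 0.0305 and 0.0262), which were lost without any 1 of 8 and 5 lists, WT 0 h replicate 3 and KO 0 h replicates 1 and 3 among them (adjusted p up to 0.0827 and 0.077).

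Ldha, the lactate dehydrogenase gene, had its called elements upstream of the gene. Its most upstream annotated coding start, at 46841475, carried a peak in 0 of 17 full lists, and the open start at 46845839 in 17. The element 12.4 kb upstream of the open start, on chromosome 7 from 46833213 to 46834443, had ranks of 3998, 4508 and 4846 in WT and 4114, 4328 and 3112 in KO at 0 h. At 1 h the ranks were 16693 and 11269 in WT and 4918, 3456 and 4182 in KO, and at 18 h they were 2742, 1808 and 2053 in WT and 2815, 2982 and 1658 in KO. Every 18 h list was better than every 0 h list, and at 1 h the WT lists lay below all others while the KO lists overlapped 0 h. The 18 h difference was 0.85 ± 0.21 (adjusted p = 0.00708, exact permutation p = 0.005), and it was not called with no common number of peaks (0.51, adjusted p = 0.313) or with 50% cover (0.33, adjusted p = 0.756). The 1 h difference was −0.87 ± 0.22 (adjusted p = 0.00743), with −1.63 in WT and −0.12 in KO, and the KO minus WT difference of 1.51 (95% interval 0.58 to 2.44, without adjustment) was not called (adjusted p = 0.281).

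A neighbouring element 14.9 kb upstream, on chromosome 7 from 46830450 to 46831571, followed the same order of times. Its ranks were 8604 to 15921 at 0 h, 11319 to 30796 at 1 h and 3541 to 9348 at 18 h. The difference at 1 h against 0 h, −0.60 ± 0.26, was not called (adjusted p = 0.0986). That at 18 h against 0 h was 0.80 ± 0.24 (adjusted p = 0.0259), a call lost without any 1 of 5 lists (adjusted p up to 0.0696). The score rose from 1 h to 18 h by 1.40 ± 0.26 (adjusted p = 0.000768), called under every alternative and without any 1 list. The Ldha promoter element, with ranks of 5342 to 21649, was not called (−0.25 ± 0.25 at 1 h and −0.51 ± 0.24 at 18 h, adjusted p = 0.507 and 0.134).

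Slc16a3, the lactate exporter gene, was the member with no call in any comparison. Its promoter element on chromosome 11 from 120950091 to 120951575 had ranks of 5924 to 11512 at 0 h, 11474 to 16750 at 1 h and 6928 to 13763 at 18 h. The difference at 1 h, −0.62 ± 0.23, missed the threshold over all elements (adjusted p = 0.0517, exact permutation p = 0.01). The start region that holds its upstream starts, around 120948480, was weaker, with a peak in 15 full lists and in 7 among the best 24389. Its best distal element, 11.7 kb upstream, had ranks of 3421 to 15694.

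**Figure D4:**
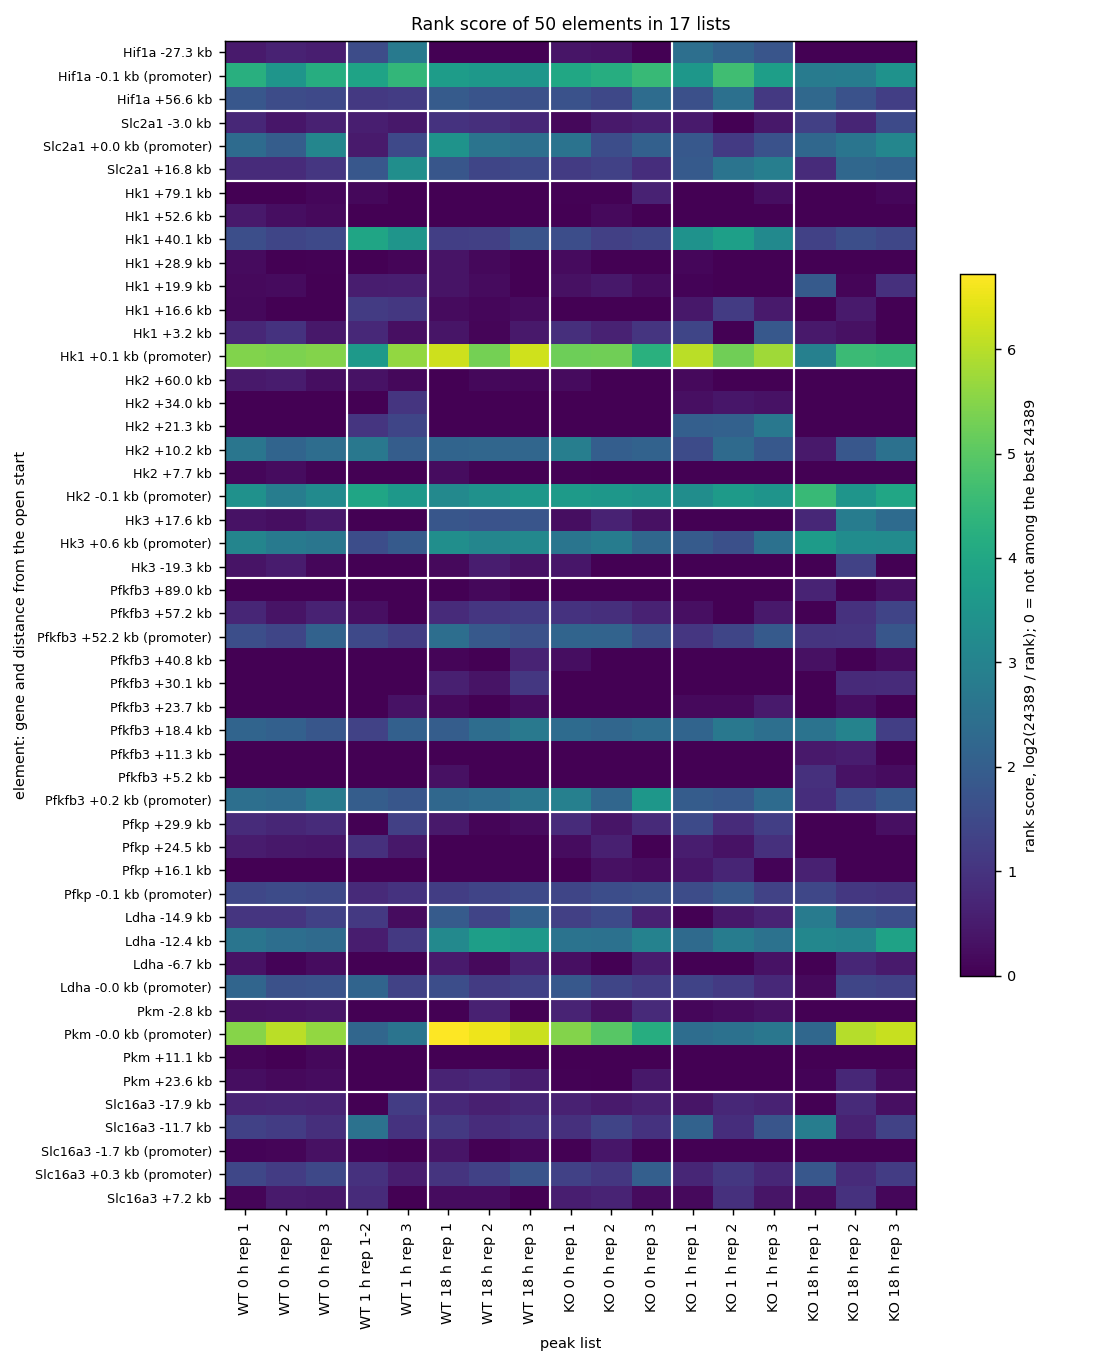
Rank score of the 50 elements (rows, by gene and distance from the open start) in the 17 lists (columns, by genotype and LPS time), with brighter colour for a better rank and the darkest colour for elements not among the best 24389 peaks. The promoter rows of Hk1 and Pkm are the brightest, and the Pkm promoter row darkens in the 5 lists at 1 h and in KO 18 h replicate 1.

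The 10 promoters ranged from sites among the best of the lists to middling ones. By median rank over the 17 lists the order was Pkm (551), Hk1 (616), Hif1a (1786), Hk2 (2166), Hk3 (3651), Pfkfb3 (5166), Slc2a1 (5188), Pfkp (9131), Ldha (9539) and Slc16a3 (10749). Pkm and Hk1 ranked above 96.1% and 95.7% of all promoter elements and Slc16a3 above 41.0%. Neighbours in this order overlapped in their ranges over lists. The 300 bp RefSeq promoters (GRCm38.p6) of all 10 genes were matched, 14 sequences in all, of which 13 lay in an element of the list. HRE core letters occurred in 12 of the 14, against 43.8% of 32851 RefSeq promoters, open or not. The count was 7 in the first Ldha promoter, 5 in the accessible Hk1 promoter, 4 each in that of Pfkp and in the inner one of Pfkfb3, 3 in that of Hif1a and 0 in the first Pkm promoter.

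The second question was whether loss of Nur77 altered accessibility at these genes. Over the 3 times, 0 of 50 elements were called between KO and WT, against 0.179% of all elements higher and 0.363% lower in KO (185 elements), and 5 of the 50 had an unadjusted p under 0.05 (9.82% of all elements). For the response at 1 h, 0 of 50 were called, against 0.281% of all elements, and 3 had an unadjusted p under 0.05 (7.06% of all elements). For the response at 18 h, 0 of 50 were called, against 0.0761%, and 4 had an unadjusted p under 0.05 (6.48% of all elements). At these backgrounds a count of 0 among 50 elements says little.

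The promoter elements gave KO minus WT score differences from −0.80 (Pkm) to 0.24 (Hk2). The Hif1a promoter differed by −0.17 (95% interval −0.61 to 0.28, adjusted p = 0.795) and the Slc2a1 promoter by 0.00 (−0.51 to 0.51, adjusted p = 1). The Ldha promoter differed by −0.47 (−0.90 to −0.05, adjusted p = 0.442, exact permutation p = 0.025) and the Pkm promoter by −0.80 (−1.74 to 0.15, adjusted p = 0.589, exact permutation p = 0.034). Without KO 18 h replicate 1, the narrow-peak list, the Pkm difference was −0.37. For no element did all KO lists lie on one side of all WT lists.

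At the Hk2 element 21.3 kb into the gene the 1 h response was 1.21 in WT and 2.27 in KO. The KO minus WT difference was 1.06 and was not called, but was called with the best 10000 peaks (0.93) and without WT 1 h replicate 3 (1.24). Since all scores of this element at 0 h and 18 h were 0, no p or interval is given. The depth of the WT 1 h lists was 0.382 and 1.61 background reads per kb and that of the KO 1 h lists 0.593 to 4.14, and the part of depth in this difference was not tested. At the element 34.0 kb into Hk2, also at 0 outside the 1 h lists, the WT 1 h lists set the sign of the KO minus WT difference over the 3 times. It was −0.06 with both, −0.24 with replicate 3 alone and 0.11 with replicate 1-2 alone. The smallest adjusted p of the members for KO against WT, 0.117, was at the Hk2 element 60.0 kb from the open start (−0.21 ± 0.05, exact permutation p = 0.004). Leaving out WT 1 h replicate 3 gave −0.23 and a call (adjusted p = 0.0296), in a fit that called 4.06% of all elements.

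**Figure D5:**
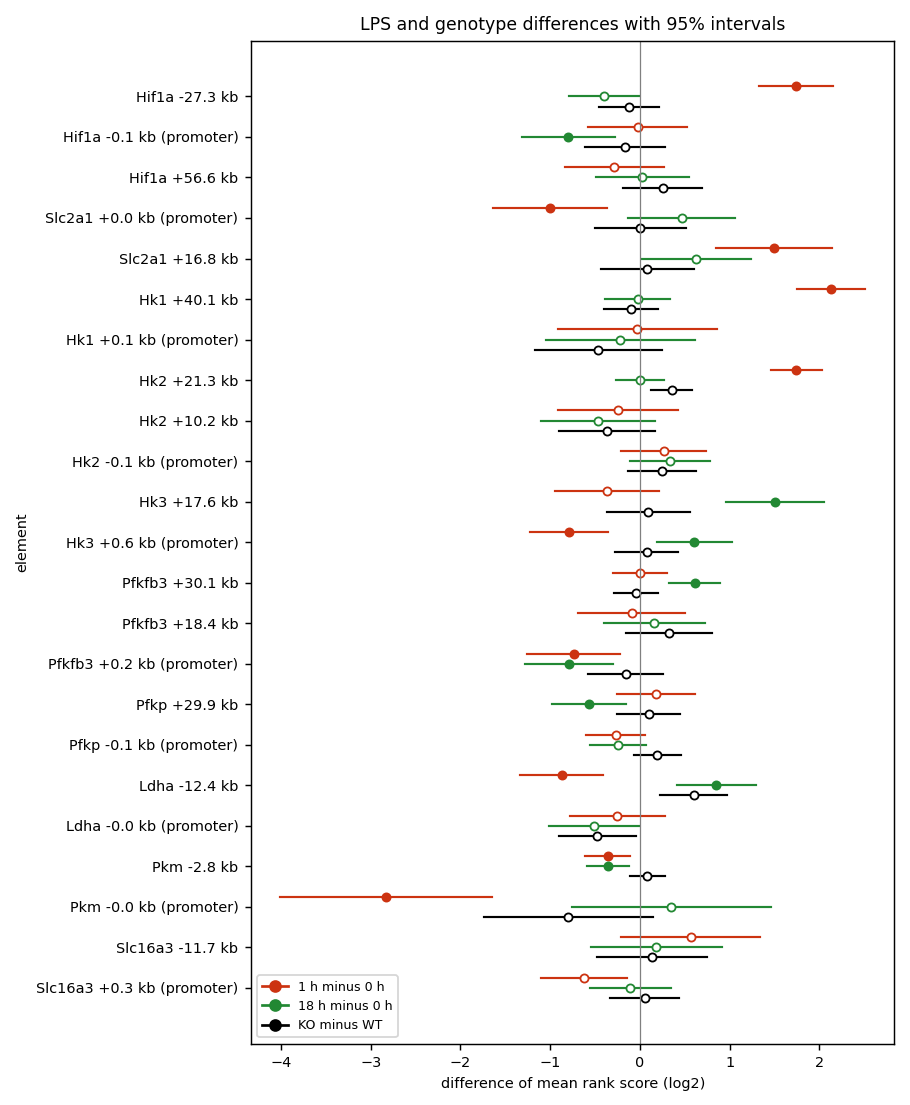
Score differences with 95% intervals for 23 elements, among them the promoter and best distal element of each gene, for 1 h minus 0 h (red), 18 h minus 0 h (green) and KO minus WT (black). Filled points passed an adjusted p of 0.05 over all 34166 elements, and no black point is filled. The Hk2 element at +21.3 kb and the Pfkfb3 element at +30.1 kb entered the fit only through lists of 1 LPS time. Their intervals and filled points are therefore not to be read as tests. The Pkm promoter at 1 h lies farthest left, at −2.83, and the Hk1 element at +40.1 kb farthest right, at 2.13.

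Other genes of glycolysis and of the hypoxia pathway were counted from lists of 26 and 14 genes. The 91 elements of the glycolysis list held 3 called higher and 12 called lower at 1 h, and 2 higher and 8 lower at 18 h, beside 13.7% and 14.4% of all elements at 1 h and 10.7% and 12.9% at 18 h, and the list was not tested as a set. Their median score difference at 1 h was −0.21, against −0.03 over all elements. Over all promoter elements the median at 1 h was −0.25 and over all distal elements 0, and the list was not split by kind. Of the 26 genes, 1 had no element. The promoter element of Slc2a6, a glucose transporter-like gene, rose by 2.25 ± 0.23 at 1 h (adjusted p = 3.47e-06) and by 1.30 ± 0.22 at 18 h (adjusted p = 0.000427). The promoter elements of Pfkl, the liver-type phosphofructokinase, and of Pdk1, a kinase that restrains pyruvate dehydrogenase, fell by 1.66 and 1.18 on the log2 scale at 1 h (adjusted p = 0.00108 and 0.00475). The promoter element of Slc16a1, a lactate transporter, fell by 1.27 at 18 h (adjusted p = 0.000317). Elements near Gpi1, Aldoa, Aldoc, Tpi1, Eno2, Eno3 and Pdk3 were called lower and an element near Pfkfb4 higher at 1 h. Several of those elements lie at promoters of neighbouring genes, such as Ppp4c near Aldoa and Unc119 near Aldoc.

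The 52 elements of the hypoxia list held 5 called higher and 3 lower at 1 h, and 4 higher and 6 lower at 18 h, to be read against the same shares of all elements. The promoter element of Nos2, the inducible nitric oxide synthase gene, rose by 1.71 ± 0.18 at 18 h (adjusted p = 7.53e-06). A distal element of Hif3a rose by 2.09 ± 0.18 at 18 h (adjusted p = 1.97e-06), and distal elements near Arnt, the partner of Hif1a, and Vhl, which marks it for degradation, rose at 1 h by 1.34 ± 0.38 and 1.44 ± 0.21 (adjusted p = 0.0145 and 9.53e-05). The promoter element of Bnip3, a mitophagy receptor gene, fell by 1.34 at 1 h and 1.32 at 18 h on the log2 scale (adjusted p = 0.00864 and 0.00759). Elements near Adm and Nos2 were called higher and elements near Egln1 and Vhl lower at 1 h, and elements near Epas1, Vhl, Egln3, Adm and Ankrd37 were called lower at 18 h. No element of either list was called between KO and WT, or for the KO minus WT difference of the 1 h or 18 h response.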

How the data were processed

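ATAC-seq peak lists of 17 BMDM samples were used. According to the methods and labels, the authors trimmed reads (cutadapt 2.6), mapped them to mm10, dropped mitochondrial reads, duplicates and mapping quality under 20 (snakeATAC 0.1.1) and called peaks per sample at q 0.001. Their count-based comparison (DiffBind 3.0.15) was not refitted here. The deposited score is 10 times −log10 q. The deposited fold column is the ratio of pileup to background, and the deposited p-value and q-value columns are on the −log10 scale. All grow with depth, so the values served here for ranking within each list and for recovering the background reads per kb, a relative depth.

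Entries sharing an interval were collapsed. The best 24389 peaks of each list (ties broken at random, seed 1) were merged with at least 1 bp of overlap into elements seen in at least 2 lists. Scores of all 34166 elements in 6 groups were fitted with limma 3.58.1 (R 4.3.3, eBayes with trend), adjusted by the Benjamini-Hochberg method over all elements, and called at adjusted p under 0.05. The fit was tested on simulated data. Errors are SE of the fitted difference unless marked SD. Exact permutation tests were two-sided and unadjusted, regrouped within genotype or LPS time, with a smallest p of 0.005 for LPS and 0.00025 for KO against WT.

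Starts and gene bodies are from GENCODE vM21. Named elements are each gene's best-ranked promoter and distal elements and the 20 called elements with the smallest p. Called Pfkfb3 elements at 5.2, 23.7 and 57.2 kb were named after their values were seen. Motif letters were searched within 100 bp of summits. Members, lists and tests were chosen with earlier results of these data known. Alternatives were 10000 peaks, no common number, 4 lists, 500 bp windows, 50% coverage, depth, a replicate block, 5 kb windows, each list left out, and (chosen after seeing the data) leaving out the shallowest and the narrow-peak list together. One gene of the glycolysis list is not reported here by name. The Python version was 3.11.15.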

Additional observations from a re-analysis of the deposited data

How the results depend on the processing

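Counts of the 50 elements called were 14 (1 h against 0 h), 15 (18 h against 0 h), 20 (18 h against 1 h) and 0 for each of the 3 KO comparisons. With the best 10000 peaks, which held 22 elements near these genes, they were 7, 6 and 10 (24.2%, 15.4% and 24.6% of all elements then tested), with 1 call for the KO minus WT difference of the 1 h response (Hk2 element at +21.3 kb, 0.468% of all elements). Requiring a peak to cover 50% of its element gave 7, 4 and 5 (19.9%, 12.0% and 8.80% of all elements), with 1 call for KO against WT (Hk3 promoter, −1.69, where 2.75% of all elements were called), and depth as a covariate gave 9, 14 and 15 (16.8%, 23.1% and 20.1%). The replicate block gave 11, 14 and 18 (20.7%, 23.0% and 22.1% of all elements), with 1 call for KO against WT and 1 for the KO minus WT 1 h response, both at the Hk2 element 34.0 kb into the gene (−0.24 and −0.71, with 0.741% and 0.527% of all elements called). Leaving out the shallowest and the narrow-peak list together, an alternative chosen after seeing the data, gave 16, 17 and 21 (29.1%, 28.3% and 31.3%) and again 1 call for each of those KO comparisons (2.01% and 1.18%).

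Leaving out 1 list at a time gave 10 to 18 calls at 1 h (22.9% to 33.7% of all elements), 6 to 15 at 18 h (19.4% to 27.2%), 15 to 22 between them (24.2% to 34.6%), 0 to 3 for KO against WT, 0 to 3 for the KO minus WT 1 h response and 0 to 1 for that at 18 h, where the lone WT 1 h list left in some fits was taken to vary like the other groups. The 18 h count was 8, 7 and 7 without WT 0 h replicates 1, 2 and 3, 6 and 8 without WT 18 h replicates 1 and 3, and 7 and 9 without KO 0 h replicates 1 and 3, in fits that called 19.4% to 21.9% of all elements against 23.6% with all lists. The 3 calls of each KO comparison came without WT 1 h replicate 3, where 4.06% and 4.15% of all elements were called.

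Of 369 refits of called differences under the other settings, 8 turned in direction, 77 lost the call and 284 kept both. Of 833 refits without 1 list, 127 lost the call. Requiring 50% cover turned the Hif1a element at −27.3 kb at 1 h (−0.16), the Hif1a promoter at 18 h against 1 h (0.57), the Slc2a1 element at +16.8 kb at 1 h (−0.51) and at 18 h against 1 h (0.91), and the Hk1 element at +16.6 kb at 18 h against 1 h (0.0526). Windows of 500 bp turned the Hk3 promoter at its best summit (0.92 at 1 h, −0.30 at 18 h against 1 h), and no common number of peaks the Pkm element at +23.6 kb at 18 h (−0.0187). The cause was not tested.

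With no common number of peaks the median difference of all elements was −0.53 at 1 h, −0.40 at 18 h and 0.12 between them (−0.03, 0.00 and 0.02 with the best 24389), and the members' calls were 4 higher and 16 lower, 3 and 9, and 12 and 3 (37.4%, 28.4% and 21.6% of all elements). With depth as a covariate they were 6 higher and 3 lower at 1 h, and under the block 8 and 3. A 5 kb window held 40 elements, of which 12, 12 and 17 were called. The replicate numbers did not pair the lists, since 4 of 35 pairs with the same number correlated above 0.1 against 10 of 85 pairs with different numbers. Both WT 1 h lists were shallow, and a peak absent from a shallow list may be below detection.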
